A study of Mus musculus with 2 samples.

Results

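The genes described here are 10 genes of muscle ubiquitin ligases: the F-box gene Fbxo32, the RING finger genes Trim63, Trim55 and Trim54, and the Asb genes Asb2, Asb10, Asb11, Asb14, Asb15 and Asb18. They were chosen by symbol from 22882 gene symbols, with their ratios between the genotypes already known, so their values are a description and not a test. Hearts came from 23 days old mice of mixed gender on the C57BL6/J background. The control mice were Med1fl/fl, with both Med1 alleles floxed, and the csMed1-/- mice carried the same floxed alleles together with a Cre transgene under the α-myosin heavy chain promoter, which deletes Med1, a subunit of the Mediator complex, in cardiomyocytes. No Cre-only control was among the samples analysed here. RNA of 5 hearts per genotype was pooled into 1 library, so there were no replicates and no difference could be set against a spread between mice. Expression is given as FPKM, a count of fragments divided by the length of the transcript and the size of the library, so that levels of different genes can be compared. A gene counted as tested if neither library listed it at 0 and the larger value reached 1 FPKM. All 10 described genes were among the 10489 tested genes. Lower and higher mean that the ratio of csMed1-/- to control passed 2-fold.

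Ubiquitin ligases choose the proteins that are marked with ubiquitin and sent to the proteasome. Fbxo32 protein (atrogin-1) is the substrate-binding subunit of a cullin-RING ligase built on Skp1, Cul1 and Rbx1, whereas the MuRF proteins encoded by Trim63, Trim55 and Trim54 carry their own RING finger and sit on the sarcomere. Asb proteins pair ankyrin repeats, which bind the substrate, with a SOCS box, which binds elongins B and C and through them Cul5 and Rnf7. Fbxo32 and Trim63 are best known as the genes that rise in wasting muscle, and several Asb genes are expressed mainly in heart and skeletal muscle.

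All 10 genes had fewer FPKM in csMed1-/- than in control heart, 8 of them by more than 2-fold, and none was higher. Among all tested genes 18.0% were lower and 13.6% higher by more than 2-fold. Taken relative to cardiomyocyte markers, whose median log2 ratio was -1.03, 2 of the 10 genes were lower by more than 2-fold. On that scale the median of the 10 was -0.42, and the log2 ratios of Fbxo32 (0.61) and Trim54 (0.04) were above 0 but within 2-fold. Of all tested genes 5.0% were then lower and 48.1% higher, with a median of 0.96. With values as deposited the log2 ratios of the 10 genes ran from -5.84 (Asb14) to -0.42 (Fbxo32). Their median was -1.45, against -0.07 over all tested genes. Only Asb14 and Asb15 passed 4-fold, as 5.14% of all tested genes did, and both also passed 16-fold, as 0.734% did. The summed level of the 10 genes was 1098 FPKM in control heart and 339 FPKM in csMed1-/- heart.

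**Figure D1:**
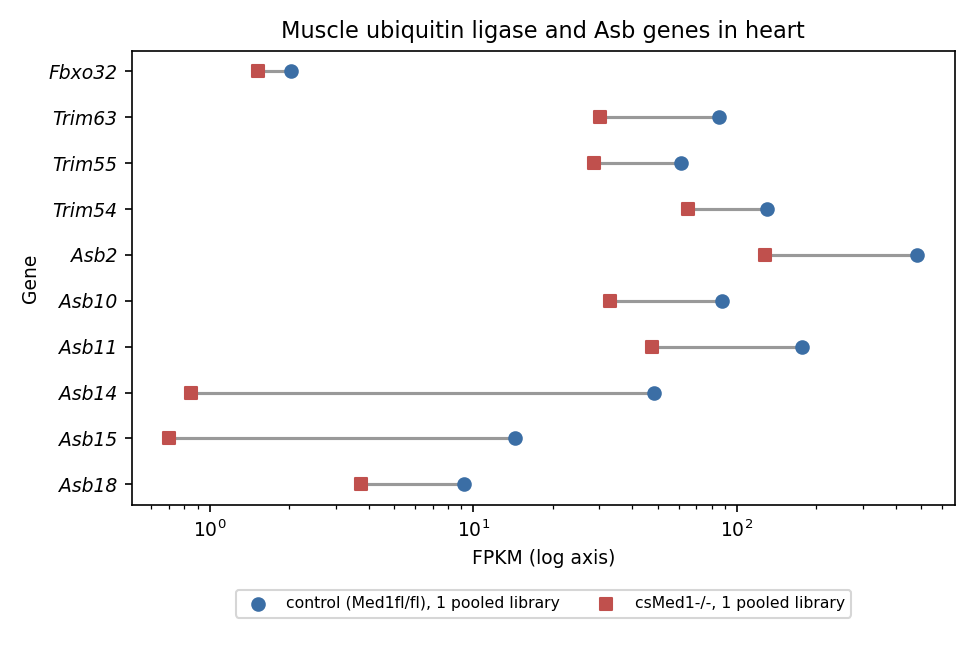
FPKM of the 10 genes (log axis) in the control library (blue circles) and the csMed1-/- library (red squares), 1 pooled library each, with a grey line joining the values of a gene. Every square lies left of its circle, with the longest lines at Asb14 (48.4 to 0.847 FPKM) and Asb15 (14.4 to 0.702 FPKM) and the shortest at Fbxo32 (2.03 to 1.52 FPKM).

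The order of the levels was not the same in the 2 genotypes. In control heart it was Asb2, Asb11, Trim54, Asb10, Trim63, Trim55, Asb14, Asb15, Asb18 and Fbxo32, from 483 down to 2.03 FPKM. In csMed1-/- heart Asb2 was still the highest and Trim54 came before Asb11, and Asb14 and Asb15 had moved to the end, below Fbxo32. Neighbours in these orders, such as Asb10 (87.6 FPKM) and Trim63 (85.4 FPKM) in control heart, cannot be told apart without replicates.

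Asb14 showed the largest difference of the 10 genes. It lies on chromosome 14 from 26894557 to 26915258 on the plus strand (GENCODE M21 annotation of GRCm38, the assembly also named mm10), and its longest transcript has 10 exons. Its level was 48.4 FPKM in control heart and 0.847 FPKM in csMed1-/- heart, which is 57.1-fold lower (log2 ratio -5.84). That ratio ranked 23 from the lowest of the 10489 tested genes, and the csMed1-/- value was 1.75% of the control value.

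Asb15 behaved similarly at a lower level. This gene, whose product has been linked to protein turnover in muscle, lies on chromosome 6 from 24528144 to 24573164 on the plus strand. It had 14.4 FPKM in control heart and 0.702 FPKM in csMed1-/- heart, which is 20.6-fold lower (log2 ratio -4.36) and ranked 57 from the lowest. In control heart Asb14 stood 3.35-fold above Asb15, and in csMed1-/- heart the levels were 1.21-fold apart. The csMed1-/- values of both genes were under 1 FPKM, where a fold depends most on the treatment of low values, and adding 1 FPKM to each value gave log2 ratios of -4.74 for Asb14 and -3.18 for Asb15.

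The promoters of these genes, 250 bases before to 50 bases after the start site, are shown because they are the members that differed most. The sequences are from RefSeq (GRCm38.p6), which held a promoter for 8 of the 10 genes and none for Fbxo32 and Trim55. Capitals mark matches on either strand to the MEF2 site and the CArG box, to the M-CAT element CATTCC, the GATA element AGATAA, the FoxO site GTAAACA, the nuclear receptor hexamer AGGTCA and the TATA box TATAAA.
Asb14 promoter (chr14:26894364-26894663, plus strand): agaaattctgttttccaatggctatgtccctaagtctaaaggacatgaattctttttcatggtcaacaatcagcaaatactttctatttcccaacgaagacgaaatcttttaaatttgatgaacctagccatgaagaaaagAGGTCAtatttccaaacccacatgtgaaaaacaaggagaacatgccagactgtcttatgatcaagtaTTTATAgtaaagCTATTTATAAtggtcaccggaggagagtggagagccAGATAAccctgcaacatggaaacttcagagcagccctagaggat
Asb15 promoter (chr6:24527894-24528193, plus strand): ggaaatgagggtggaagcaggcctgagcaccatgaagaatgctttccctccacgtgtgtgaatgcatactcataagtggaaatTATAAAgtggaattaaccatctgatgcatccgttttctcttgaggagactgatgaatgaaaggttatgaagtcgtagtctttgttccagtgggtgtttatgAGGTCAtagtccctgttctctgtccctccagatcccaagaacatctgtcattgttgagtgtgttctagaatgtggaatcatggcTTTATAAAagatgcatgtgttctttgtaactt

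Among the 9 member promoters, of which Asb2 has 2, the hexamer AGGTCA was held by 2, those of Asb14 and Asb15. Of all 32851 RefSeq promoters 16.3% hold these letters, the core to which many nuclear receptors bind. The motifs were chosen after the ratios had been seen, and a part of the hexamer in the ratios was not tested. Counted from the start site as 0, the hexamer lies at -109 to -104 in Asb14 and at -66 to -61 in Asb15. In Asb15 it lies within the 131 bases that separate this gene from Ndufa5, which runs away from it on the opposite strand and had a log2 ratio of -1.05. Asb14 also held a MEF2 site at -30 to -21, which overlaps one of its TATA matches, and 3.19% of all promoters hold such a site. Both promoters were poor in G and C, at 38.3% for Asb14 and 42.0% for Asb15, against a median of 52.7% over all promoters. Matches of letters are a description and show no binding.

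Over all tested genes with a RefSeq promoter, 23.7% of the 1113 genes with AGGTCA in the window were lower by more than 2-fold, against 16.5% of the 6295 genes without it. Lower by more than 16-fold were 1.62% and 0.524% of them, and Asb14 and Asb15 are themselves among those with AGGTCA. This 16-fold share was also larger with than without the MEF2 site (2.20% and 0.650%), the TATA box (1.21% and 0.637%) and the GATA element (1.20% and 0.645%). So it was for the M-CAT element (1.16% and 0.605%), the FoxO site (0.881% and 0.682%) and the E-box (0.805% and 0.451%). With and without the CArG box it was 0% and 0.700%. For the MEF2 site the shares lower by more than 2-fold were 30.8% of 182 genes with it and 17.2% of 7226 without it. The TATA box (22.7% with and 17.1% without) and the GATA element (22.0% and 17.2%) showed differences of the same direction, as did the FoxO site (20.7% and 17.5%), the M-CAT element (19.4% and 17.2%) and the E-box (18.8% and 15.0%). For the CArG box the order was the opposite (15.7% and 17.6%). No test was made of these shares, and the genes come from the same pair of libraries.

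Asb2 was the most abundant of the 10 genes in both libraries. Its product directs the degradation of filamins in muscle cells, and the gene lies on chromosome 12 from 103321142 to 103356001 on the minus strand, with 10 exons in its longest transcript. It had 483 FPKM in control heart and 127.7 FPKM in csMed1-/- heart, which is 3.78-fold lower (log2 ratio -1.92). Among the levels of all tested genes it stood at percentile 97.4 in control heart and at 91.9 in csMed1-/- heart.

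Asb11 came close to Asb2 in its ratio. Asb11 is known from zebrafish as a gene of muscle and neural progenitors whose product acts on a Notch ligand, and in the mouse it lies on the X chromosome from 164436994 to 164459170 on the plus strand. Its level was 176 FPKM in control heart and 47.7 FPKM in csMed1-/- heart, which is 3.70-fold lower (log2 ratio -1.89). The level of Asb2 was 2.74-fold that of Asb11 in control heart and 2.68-fold in csMed1-/- heart, so the proportion between these genes was nearly the same in both libraries.

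Asb10 and Asb18 were lower by smaller factors. Asb10 (chromosome 5, 24532697 to 24540978, minus strand) was at 87.6 FPKM in control heart and 33.0 FPKM in csMed1-/- heart, which is 2.65-fold lower (log2 ratio -1.41). Asb18 (chromosome 1, 89950220 to 90014666, minus strand) had 9.22 and 3.73 FPKM, which is 2.47-fold lower (log2 ratio -1.30). Without Asb14 and Asb15 the 4 other Asb members thus lay between log2 ratios of -1.92 and -1.30, with a median of -1.65.

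The Asb2 and Asb18 promoters are shown beside these values because they hold a CArG box and a MEF2 site. Asb2 has a further promoter in RefSeq, within the gene, in which only an E-box was found.
Asb2 promoter (chr12:103355952-103356251, minus strand): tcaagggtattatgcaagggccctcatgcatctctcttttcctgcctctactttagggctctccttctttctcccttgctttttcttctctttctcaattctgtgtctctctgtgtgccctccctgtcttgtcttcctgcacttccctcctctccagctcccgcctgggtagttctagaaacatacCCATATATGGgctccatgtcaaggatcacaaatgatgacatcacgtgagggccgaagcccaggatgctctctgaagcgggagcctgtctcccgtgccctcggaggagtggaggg
Asb18 promoter (chr1:90014617-90014916, minus strand): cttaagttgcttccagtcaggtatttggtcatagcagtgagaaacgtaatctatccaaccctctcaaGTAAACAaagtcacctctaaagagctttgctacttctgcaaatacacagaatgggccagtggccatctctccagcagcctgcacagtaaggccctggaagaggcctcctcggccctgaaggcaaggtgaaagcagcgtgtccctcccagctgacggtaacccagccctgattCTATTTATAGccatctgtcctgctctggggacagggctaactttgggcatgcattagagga

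The CArG box of Asb2, the type of element that serum response factor binds, lies at -64 to -55, and 1.63% of all promoters hold one. The MEF2 site of Asb18 lies at -11 to -2 with a TATA match inside it, and its FoxO site at -183 to -177. An E-box (CANNTG, not in capitals) occurred in 9 of 9 member promoters, and 72.3% of all promoters hold one.

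The 3 MuRF genes had a median log2 ratio of -1.10, against -1.90 for the 6 described Asb genes. Trim63 encodes MuRF1, which ubiquitinates thick filament proteins and troponin I, and lies on chromosome 4 from 134315120 to 134329629 on the plus strand with 9 exons. It had 85.4 FPKM in control heart and 30.3 FPKM in csMed1-/- heart, which is 2.82-fold lower (log2 ratio -1.49). This was the lowest ratio of the MuRF genes and ranked 1020 from the lowest of all tested genes.

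Trim55, the gene of MuRF2, and Trim54, the gene of MuRF3, encode close relatives of MuRF1 that associate with microtubules and the sarcomere. Trim55 (chromosome 3, 19644474 to 19692421, plus strand) had 61.4 FPKM in control heart and 28.6 FPKM in csMed1-/- heart, which is 2.15-fold lower (log2 ratio -1.10). Trim54 (chromosome 5, 31116712 to 31137630, plus strand) had 129.9 and 65.3 FPKM, a ratio of 0.503 (log2 ratio -0.99), and did not pass 2-fold. Both stood next to the threshold and crossed it with the scaling: with values scaled to their sum the log2 ratio of Trim55 was -0.98, and with the 100 highest genes left out of the sum that of Trim54 was -1.01. In csMed1-/- heart Trim63 and Trim55 were at nearly the same level (30.3 and 28.6 FPKM), whereas Trim54 was 2.15-fold above Trim63.

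The promoters of Trim63 and Trim54 are shown to set the MuRF gene that differed most beside the one that differed least.
Trim63 promoter (chr4:134314870-134315169, plus strand): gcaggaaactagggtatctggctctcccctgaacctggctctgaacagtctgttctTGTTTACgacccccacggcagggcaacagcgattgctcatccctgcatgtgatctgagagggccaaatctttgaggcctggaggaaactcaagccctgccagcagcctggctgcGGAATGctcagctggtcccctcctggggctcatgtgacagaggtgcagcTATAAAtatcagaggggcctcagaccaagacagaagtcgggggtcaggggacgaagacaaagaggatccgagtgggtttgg
Trim54 promoter (chr5:31116362-31116661, plus strand): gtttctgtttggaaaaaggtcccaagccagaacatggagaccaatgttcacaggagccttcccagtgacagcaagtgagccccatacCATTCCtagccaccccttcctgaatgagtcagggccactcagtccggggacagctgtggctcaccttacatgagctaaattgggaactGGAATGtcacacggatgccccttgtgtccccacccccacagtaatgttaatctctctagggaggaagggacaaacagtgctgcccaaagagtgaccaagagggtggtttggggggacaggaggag

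Trim63 held a FoxO site at -194 to -188, as 3.65% of all promoters do, and a TATA box at -31 to -26. M-CAT elements, the letters that TEAD factors bind, were found once in Trim63, 2 times in Trim54 and once in Asb10, and 14.7% of all promoters hold one. The FoxO site was shared by Trim63 and Asb18 among the 9 member promoters.

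Fbxo32 had the lowest control level and the smallest difference of the 10 genes. It lies on chromosome 15 from 58175879 to 58214932 on the minus strand, with 9 exons. Its level was 2.03 FPKM in control heart and 1.52 FPKM in csMed1-/- heart. The ratio of 0.749 (log2 ratio -0.42) was within 2-fold. In control heart it was at percentile 18.4 of the levels of tested genes, and Trim63, the other classical atrophy ligase, stood 42.1-fold above it, against 20.0-fold in csMed1-/- heart. With 6976 bases Fbxo32 has the longest transcript of the 10 genes, and the tested genes of its length class (6119 bases or more) had a median log2 ratio of -0.26.

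**Figure D2:**
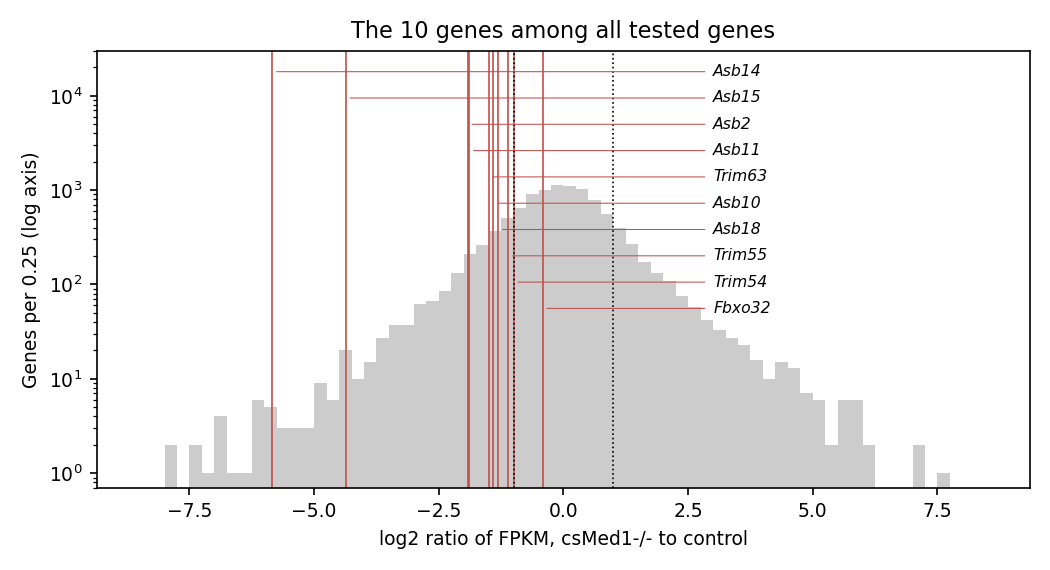
Histogram of the log2 ratios of FPKM, csMed1-/- to control, of the 10489 tested genes (grey, number of genes per bin on a log axis), with red lines at the 10 described genes and dotted lines at 2-fold. With values as deposited all 10 lines lie left of 0, Asb14 (-5.84) and Asb15 (-4.36) in the far left tail, and Fbxo32 (-0.42) and Trim54 (-0.99) right of the dotted line at -1.

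The whole Asb family holds 18 genes in these data. The 6 described Asb genes summed to 819 FPKM in control heart and 214 FPKM in csMed1-/- heart, and the family as a whole to 931 and 301 FPKM. Asb2 alone made up 51.9% of the family sum in control heart and 42.4% in csMed1-/- heart. The share of Asb14 was 5.20% in control heart and 0.281% in csMed1-/- heart.

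Of the 12 other Asb genes 7 were tested, with 3 lower and 1 higher by the same threshold and a median log2 ratio of -0.68. Asb8 was lower at 73.2 FPKM in control heart and 34.3 FPKM in csMed1-/- heart (log2 ratio -1.09). Asb5 (3.33 and 0.634 FPKM) and Asb13 (2.16 and 0.778 FPKM) were lower too, and were named after their values were seen. Asb6 was the one that was higher, at 11.6 FPKM in control heart and 33.2 FPKM in csMed1-/- heart (log2 ratio 1.51), and it made up 1.25% of the family sum in control heart and 11.0% in csMed1-/- heart. Asb1, Asb3 and Asb12 stayed within 2-fold, Asb4, Asb7 and Asb16 were under 1 FPKM in both libraries, and Asb9 and Asb17 were listed at 0 in both.

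**Figure D3:**
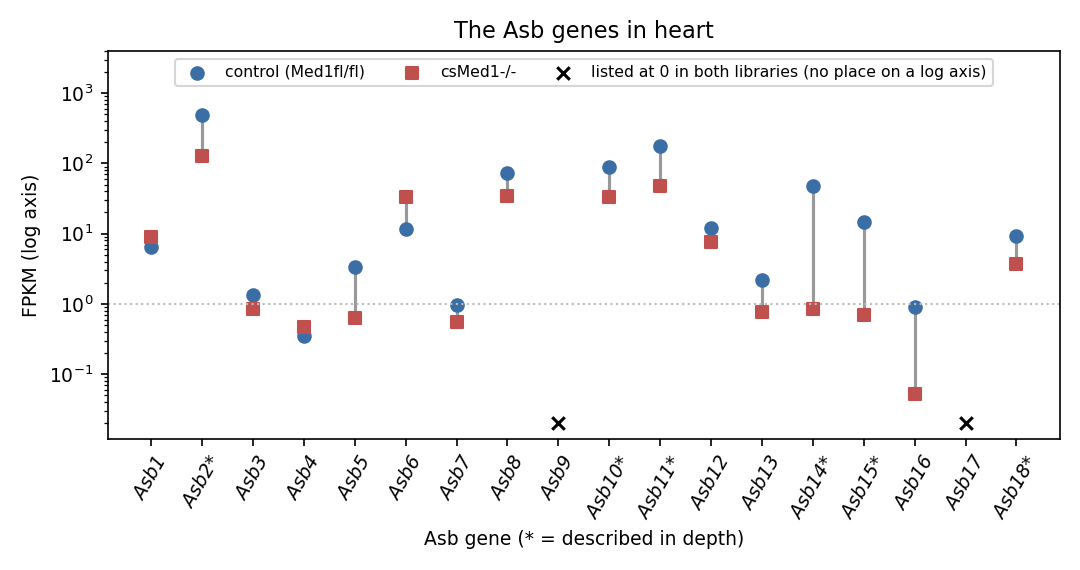
FPKM (log axis) of the 18 Asb genes in control (blue circles) and csMed1-/- heart (red squares), 1 pooled library each, with an asterisk at the 6 genes described in depth, a dotted line at 1 FPKM and crosses at genes listed at 0 in both. Asb14 and Asb15 drop below the dotted line in csMed1-/- heart, and Asb6 lies higher there (33.2 against 11.6 FPKM).

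The subunits with which these substrate receptors form ligases stayed within 2-fold with values as deposited. Of 20 genes of cullin-RING scaffolds, adaptors and neddylation enzymes 19 were tested, and none of the 19 passed 2-fold, with a median log2 ratio of 0.29 and a range from -0.75 to 0.95. The partners of the Asb proteins were Cul5 at 2.90 FPKM in control heart and 3.26 FPKM in csMed1-/- heart, Rnf7 at 48.1 and 29.6 FPKM, Tceb1 (elongin C) at 12.5 and 9.28 FPKM, and Tceb2 (elongin B) at 921 and 1368 FPKM. The partners of Fbxo32 were Cul1 at 3.31 and 3.21 FPKM, Rbx1 at 48.1 and 58.8 FPKM, and Skp1a at 46.7 and 58.0 FPKM.

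Other ubiquitin ligases and kelch adaptors of muscle were lower in part. Of the 25 genes on this list 23 were tested, 8 were lower and 0 higher by more than 2-fold, and the median log2 ratio was -0.51. Klhl38, a kelch gene of striated muscle, had 24.5 FPKM in control heart and 0.913 FPKM in csMed1-/- heart, which is 26.8-fold lower. Rnf207, a RING finger gene linked to cardiac repolarization, had 18.9 and 1.99 FPKM, which is 9.49-fold lower. Fbxl22, the gene of a cardiac F-box protein at the Z-disc, was 6.17-fold lower (36.5 and 5.92 FPKM). Fbxo40, whose product targets the insulin receptor substrate in muscle, was 4.17-fold lower (82.2 and 19.7 FPKM). The other 15 tested genes stayed within 2-fold.

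The genes described as regulators of Fbxo32 and Trim63 mostly stayed within 2-fold, with 4 lower and 1 higher of 16 tested and a median log2 ratio of -0.48. The FoxO factors, which drive both genes in wasting muscle, were at 6.24 and 5.02 FPKM (Foxo1), 15.9 and 10.1 FPKM (Foxo3) and 14.6 and 14.0 FPKM (Foxo4) in control and csMed1-/- heart. Foxo6, which had the lowest ratio on the list and was named after its values were seen, was 13.2-fold lower (6.57 and 0.499 FPKM). Klf15, a factor that acts with FoxO1 in muscle, was at 31.7 and 25.1 FPKM. Nfkb1 was lower (12.5 and 5.98 FPKM) and Rela, its partner in NF-κB, was higher (37.5 and 77.3 FPKM), each just past 2-fold.

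Other genes of the atrophy programme were mostly within 2-fold or higher. Of 15 tested, 1 was lower and 3 were higher by more than 2-fold, with a median log2 ratio of 0.30. The cell cycle inhibitor gene Cdkn1a was 22.7-fold higher (30.5 and 693 FPKM), the metallothionein gene Mt2 9.68-fold higher (92.9 and 900 FPKM) and the autophagy gene Gabarapl1 was higher by a log2 ratio of 1.26 (51.5 and 123.8 FPKM).

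Proteins described as substrates or partners of these ligases differed in both directions at the RNA level, with 5 genes lower and 2 higher of 17 tested and a median log2 ratio of -0.45. Flnc, the muscle filamin gene and a target of Asb2, had 117.5 FPKM in control heart and 409 FPKM in csMed1-/- heart, which is 3.48-fold higher. Flna (31.8 and 34.3 FPKM) stayed within 2-fold. Des, the desmin gene, was 2.59-fold higher (1871 and 4851 FPKM). Among the substrates of MuRF proteins, Tnni3 (cardiac troponin I) was 6.69-fold lower (10283 and 1537 FPKM), Tcap 3.46-fold lower (2235 and 646 FPKM), Myl2 3.11-fold lower (20467 and 6571 FPKM) and Ckm 2.86-fold lower (5262 and 1837 FPKM). Protein was not measured in these files.

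Among genes of ubiquitin and conjugating enzymes 5 were higher and 1 was lower of 30 tested, with 24 within 2-fold and a median log2 ratio of 0.13. Ubb, a polyubiquitin gene, was 3.08-fold higher (1138 and 3505 FPKM), Ube2g2 2.78-fold (66.8 and 185.6 FPKM), Ube2e2 2.33-fold (4.42 and 10.3 FPKM) and Ube2l6 2.31-fold (27.2 and 62.8 FPKM). Ube2b, an enzyme gene known to rise in wasting muscle, was lower (29.8 and 12.7 FPKM).

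**Figure D4:**
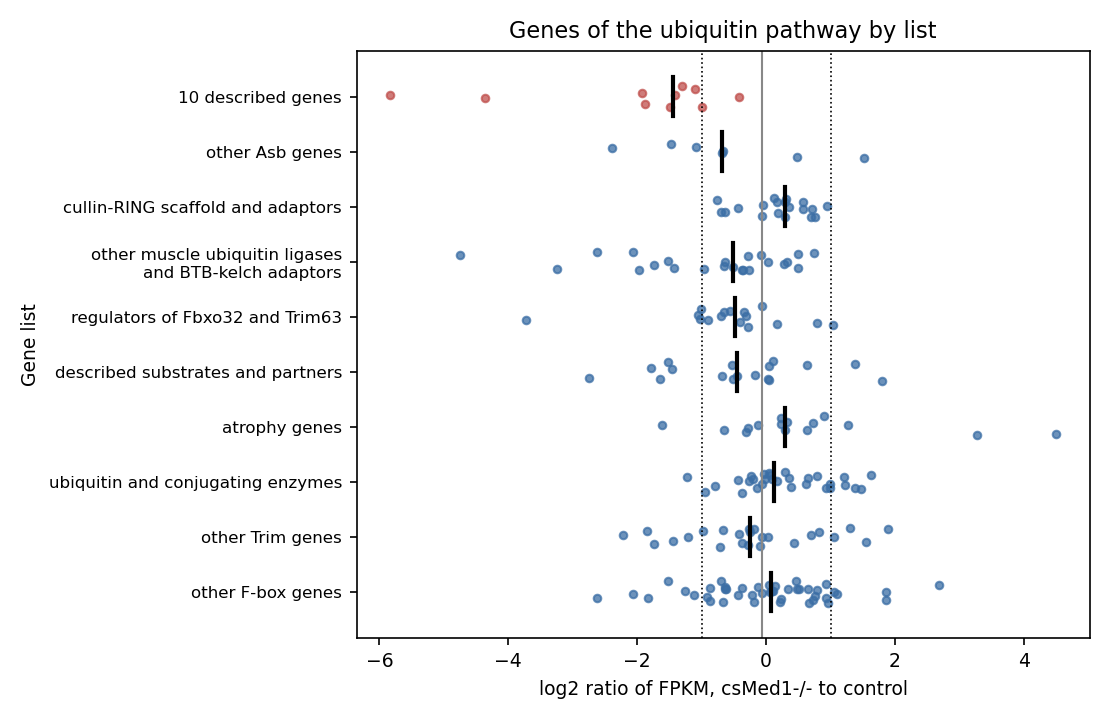
Log2 ratio of FPKM, csMed1-/- to control, of each tested gene (points, spread vertically for clarity) in the 10 described genes (red) and 9 lists of related genes (blue), with black bars at the medians, dotted lines at 2-fold and a grey line at the median of all tested genes. The median is -1.45 for the 10 genes and between -0.68 and 0.30 for the 9 lists, and all points of the cullin-RING list lie between the dotted lines.

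The sign of the list medians depended on the scale. Relative to cardiomyocyte markers the median log2 ratio was above 0 for each of the 9 lists, and it changed sign for the other Asb genes (0.34), the other muscle ligases and kelch adaptors (0.51), the regulators (0.54), the substrates and partners (0.57) and the other Trim genes (0.78). For the cullin-RING list it was 1.32. This centring adds 1.03 to every gene, and the median over all tested genes was then 0.96. The lists whose sign changed lay below that median, as they did with values as deposited.

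The deleted gene and the cell markers were read in the same pair of libraries. Med1 had 3.38 FPKM in control heart and 0.412 FPKM in csMed1-/- heart (ratio 0.122). Cardiomyocyte markers such as Myl2, Myl3 and Tnnc1 were abundant in both libraries, which fits the labelled tissue. Ttn was at 8.22 and 5.75 FPKM and Ryr2 at 84.6 and 8.70 FPKM in control and csMed1-/- heart. Actc1 and Mb were listed at 0 in control against 9189 and 1040 FPKM in csMed1-/- heart. Myh6 and Myh7 share 1 row that is listed at 0 in control, so a listed 0 can be a missing estimate. Each of the 10 genes stands on a row of its own.

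The 10 genes are expressed in cardiomyocytes, and in whole heart RNA fewer cardiomyocytes and less RNA per cardiomyocyte cannot be told apart. Of the 12 cardiomyocyte markers 9 were tested, of which 5 were lower and 0 higher by more than 2-fold, with log2 ratios from -3.78 to 0.56 and a median of -1.03. The summed level of the markers above 0 in both libraries was 57167 FPKM in control heart and 27290 FPKM in csMed1-/- heart. Relative to the marker median, 8 of the 10 genes still had log2 ratios below 0, but only Asb14 (-4.81) and Asb15 (-3.33) passed 2-fold. The log2 ratios of Trim54 (0.04) and Fbxo32 (0.61) changed sign, and the median over all tested genes was 0.96. With Ryr2 and Pln left out of the markers, an alternative chosen after seeing the data, Asb2 (-1.16) and Asb11 (-1.13) also passed 2-fold and only Fbxo32 (0.34) was above 0.

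**Figure D5:**
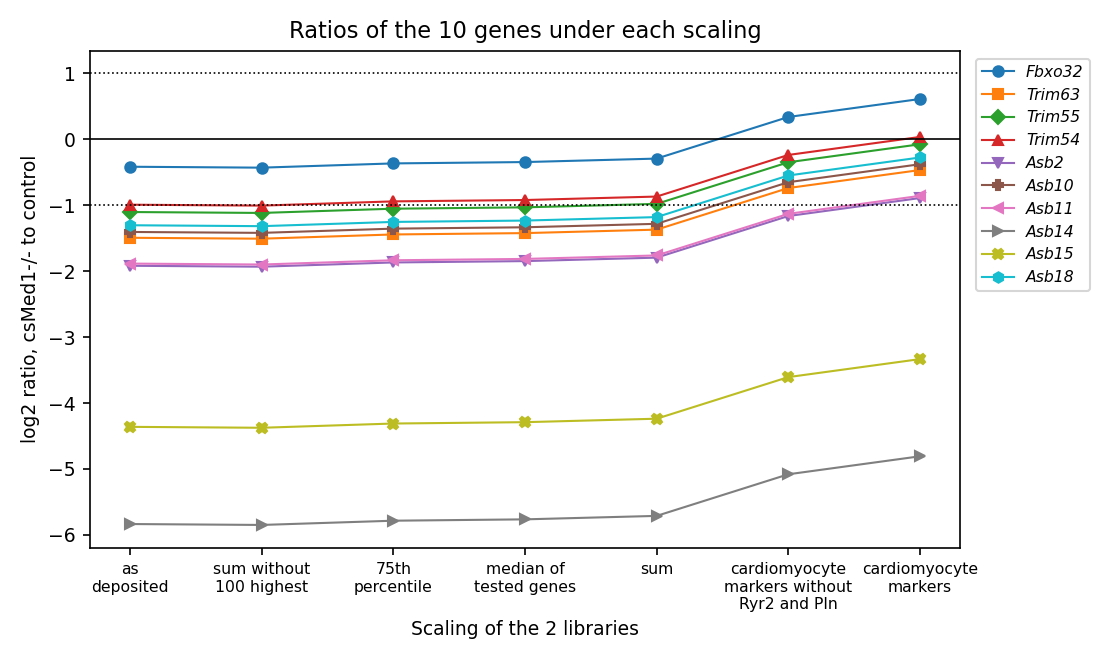
Log2 ratio of FPKM, csMed1-/- to control, of the 10 genes (1 line and symbol per gene) under 7 ways of scaling the 2 libraries, with a line at 0 and dotted lines at 2-fold. The first 5 scalings leave every gene below 0, and centring on cardiomyocyte markers moves all genes up by 1.03, or by 0.75 without Ryr2 and Pln, and leaves Asb14 and Asb15 far below the others.

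Skeletal muscle, which also expresses these ligases, left little signal. Apart from Acta1, which failing hearts also express (207 and 2033 FPKM), the skeletal muscle markers were at 5.38 FPKM or less in both libraries. Myh1 (4.05 and 0.471 FPKM) and Tnni2 (5.38 and 0.276 FPKM) were higher in control, Mylpf (0.955 and 2.44 FPKM) in csMed1-/- heart, and 6 of the 10 measured markers were under 1 FPKM in both. Their part in the ratios of the 10 genes was not tested.

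Markers of other cells moved in either direction. Of 8 fibroblast markers 4 were higher and 1 lower by more than 2-fold (summed level 503 FPKM in control heart and 1193 FPKM in csMed1-/- heart), and of 7 endothelial markers 1 was higher and 2 lower (481 and 440 FPKM). None of 6 tested macrophage markers passed 2-fold (324 and 359 FPKM), and of 4 smooth muscle markers 2 were higher and 1 lower (604 and 1024 FPKM). The higher smooth muscle sum rested on Cnn1 (4.32 and 622 FPKM), whereas Acta2, the most abundant of these markers in control heart, was at 573 and 310 FPKM. Of 3 tested atrial markers 2 were higher, led by Nppa, a gene that failing ventricles also express (468 and 11114 FPKM), and the only erythroid marker on a row of its own, Alas2, had 35.8 and 82.1 FPKM. Their part in the ratios of the 10 genes was not tested.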

How the data were processed

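RNA of 5 Med1fl/fl and of 5 csMed1-/- hearts was pooled by genotype, and 1 library per pool was read as directional single-end reads after oligo-dT selection. The authors mapped reads to mm10 with TopHat 2.0.8b. The FPKM values deposited came from Cufflinks and cuffdiff 2.1.1 with UCSC gene models. Whether the counting used strand, and which library scaling was applied, is not given in the sources used here. Fbxo32, Trim54 and Asb2 each overlap an annotated antisense gene, whose reads could then not be told apart.

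FPKM values were used as deposited. Each file has 23424 rows with 22882 symbols, and rows sharing a symbol (412 symbols) were summed. Symbols that the files join on 1 row (Myh6 with Myh7, Myh2 with Myh8, the globins) were not counted with the lists. csMed1-/- FPKM was divided by control FPKM for each gene that neither library listed at 0 and whose larger value reached 1 FPKM. With 1 library per genotype no test was made. Read counts are unknown. Steps among 2461 rows at or below 0.15 FPKM gave a depth 1.39 times greater for csMed1-/- than for control, provided that mapped fragments alone set the scale. This estimate is weak, because 79 rows lay at the most frequent ratio (0.722) and 64 at double that ratio.

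The 10 genes, the 9 gene lists and the 8 marker lists were chosen with earlier results of these data known, and the motifs after the ratios had been seen. Named genes are the 10 genes, Med1, named partners and regulators, and in each list up to 4 genes per direction past 2-fold and at 10 FPKM or more. Positions, exons and transcript lengths came from GENCODE M21 (GRCm38), joined by symbol, with a length for 90.3% of tested genes, and promoters from RefSeq (GRCm38.p6). The ratio and threshold steps were tested on simulated data. The 13 planned and 2 added alternatives varied the pseudocount, filter, scaling, threshold, row handling, transcript length and marker reference. Python 3.11.15, numpy 2.4.6, pandas 2.3.3 and matplotlib 3.10.9 were used.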

Additional observations from a re-analysis of the deposited data

How the results depend on the processing

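No replicate exists, so no library could be left out, and precision is limited by the unknown read counts. No paired analysis was possible because each genotype has 1 pooled library. No described gene was higher by more than 2-fold under any of the 15 alternatives.

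The count of 8 lower genes became 2 at a 4-fold threshold (the median of -1.45 being within it) and 2 when ratios were centred on cardiomyocyte markers, where the median was -0.42. Without Ryr2 and Pln among those markers, an alternative chosen after seeing the data, it was 4 with a median of -0.70. Under the other alternatives it lay between 6 and 9, with 6 of 8 genes left at 1 FPKM in both libraries and 7 of 8 at 10 FPKM in either. Of all tested genes 5.14% were lower at 4-fold, 5.0% centred on cardiomyocyte markers and 7.08% without Ryr2 and Pln. Under the other alternatives that share lay between 12.3% and 20.0%, with 14.7% at 1 FPKM in both libraries and 16.3% at 10 FPKM in either. Of the scalings only the marker centrings and scaling to the sum (0.12 on the log2 scale) moved ratios by over 0.1.

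Over all tested genes, 1886 were lower and 1423 higher by more than 2-fold. The counts were 3182 and 2504 with no filter on low values, 885 and 821 at 10 FPKM in either library, 539 and 453 at 4-fold, 525 and 5042 centred on cardiomyocyte markers, and 743 and 3821 without Ryr2 and Pln. Scaling to the sum turned the split to 15.5% lower and 16.0% higher.

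Of the 186 tested genes on the 9 lists, 29 were lower and 21 higher, against 24 and 29 with values scaled to the sum and 26 and 27 centred on the median of all tested genes. The lower count was 19 at 1 FPKM in both libraries and 15 at 10 FPKM in either. The counts were 8 and 3 at 4-fold, 8 and 91 centred on cardiomyocyte markers, and 12 and 67 without Ryr2 and Pln. The median of the skeletal muscle markers, -0.88 over 4 genes, was 3.30 with 1 FPKM in both libraries and 3.30 with 10 FPKM in either, where Acta1 alone was left. Centring within 10 length classes, also chosen after seeing the data, left 8 lower and moved Fbxo32 to -0.16.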

Other observations

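The genes next to the 10 described genes were read after their values had been seen. Klhl38 is the nearest protein-coding gene to the right of Fbxo32, 99641 bases away on the same strand, and its log2 ratio was -4.75 where that of Fbxo32 was -0.42. Asb15 lies between Ndufa5, a complex I gene 131 bases away on the opposite strand with 330 FPKM in control heart and 159 FPKM in csMed1-/- heart (log2 ratio -1.05), and Lmod2, a thin filament gene 24598 bases away with 85.5 and 34.3 FPKM (log2 ratio -1.32). The log2 ratio of Asb15 was -4.36. Asb11 has its family member Asb9 as the next protein-coding gene to the right, 47157 bases away on the same strand, and Asb9 was listed at 0 in both libraries where Asb11 had 176 and 47.7 FPKM. Otub2, next to Asb2 on the opposite strand, differed the other way with 4.20 and 8.91 FPKM (log2 ratio 1.09), and Wdyhv1, on the other side of Fbxo32 from Klhl38, had 12.6 and 10.6 FPKM (log2 ratio -0.26).

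The wider families of the described ligases held genes that differed in either direction. Of 24 other Trim genes tested 5 were lower and 4 higher by more than 2-fold (median log2 ratio -0.25), among them Trim7 (18.8 and 5.25 FPKM) and Trim72, a membrane repair gene of striated muscle (226 and 67.7 FPKM), which were lower, and Trim47 (44.9 and 166 FPKM) and Trim35 (52.5 and 109.1 FPKM), which were higher. Of 44 other F-box genes tested 6 were lower and 5 higher (median log2 ratio 0.07), among them Fbxo31 (75.4 and 26.3 FPKM), which was lower, and Fbxw9 (5.35 and 19.5 FPKM) and Fbxw8 (35.7 and 76.7 FPKM), which were higher. The lists overlap. Trim72, Fbxo31, Fbxl22 and Fbxo40, all lower, were counted here and also with the other muscle ligases and kelch adaptors. The same holds for Trim32 and Fbxo21, which stayed within 2-fold. Foxo1 and Foxo3 were counted with the regulators and the atrophy genes, and Sqstm1 with the substrates and partners and the atrophy genes. Tnni3, Myl2 and Ttn were counted both with the substrates and partners and with the cardiomyocyte markers.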
